A study of Mus musculus with 8 samples.

Results

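Oxidative phosphorylation genes were read in TN SST neurons, the somatostatin neurons of the tuberal nucleus of the mouse hypothalamus, sorted from 4 female and 4 male mice. The genes were chosen by name. They are the protein-coding genes whose symbols start with Ndufa, Ndufb, Ndufc, Ndufs, Ndufv, Uqcr, Cox4, Cox5, Cox6, Cox7, Cox8, Atp5 or mt-, with *Sdha*, *Sdhb*, *Sdhc* and *Sdhd*. The rule took 107 of the 35968 genes in the files, of which 94 are nuclear and 13 are carried by the mitochondrial genome. The rule uses no measured value, but it was set with earlier results of these data known. Of the nuclear genes, 36 encode core or accessory subunits of complex I, 8 are complex I assembly factors, 4 belong to complex II, 8 to complex III, 20 to complex IV and 18 to ATP synthase. *Ndufa4* and *Ndufa4l2* are counted under complex IV.

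All 8 mice were *Sst-Cre* heterozygotes on a C57BL/6J background, with the label genotype Ssttm2.1(cre)Zjh/J / +, and all were injected in the TN of both hemispheres with AAV2-flex-tdTomato, so that the agent and the Cre allele were shared by both sexes. Females are described as cycling and males as gonad-intact, and neither the estrous stage nor the exact age of these mice is given in the sources used here. Cre is driven by the *Sst* locus and the reporter came with the virus, so the red fluorescence marks cells in the injected area that held Cre at or after the injection. Dissected tissue was dissociated with papain, live nucleated red cells were collected by flow cytometry, and their total RNA was sequenced as 1 library per mouse with no unsorted control. In bulk RNA, fewer cells of a type and less RNA per cell cannot be told apart.

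Oxidative phosphorylation is carried out in the inner mitochondrial membrane. Complexes I and II pass electrons to ubiquinone, complex III passes them on to cytochrome c, complex IV gives them to oxygen, and ATP synthase uses the proton gradient that complexes I, III and IV build. The mitochondrial genome encodes core subunits of complexes I, III and IV and of ATP synthase and none of complex II, and the nuclear genome encodes all other subunits, which are imported. Neurons draw most of their ATP from this route, for ion pumping and transmitter release.

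The libraries held 7.83 to 17.6 estimated counts per mouse, in units of 1000000. *Sst* was listed at 898 to 1883 TPM and the neuronal gene *Snap25* at 466 to 1050 TPM in every mouse, where TPM are transcripts per 1000000, a level per unit of transcript length. Markers of other cell types were also present in the sorted material. The 8 microglia markers summed to 300 to 1821 TPM in females and 663 to 3571 TPM in males, the 6 oligodendrocyte markers to 347 to 1506 and 541 to 1377 TPM, and the 6 astrocyte markers to 111 to 340 and 282 to 538 TPM, and none of these markers was at 0 in any mouse. All 8 microglia markers had fitted values below 0, female over male, with a median of -1.44 on the log2 scale. All 6 astrocyte and all 6 oligodendrocyte markers were also below 0, with medians of -0.79 and -0.75. All 8 neuron markers were above 0, with a median of 0.32, and summed to 2805 to 4427 TPM in females and 2238 to 2849 TPM in males. None of these markers passed the adjusted threshold. At an unadjusted p under 0.05 in edgeR lay 4 microglia, 1 astrocyte, 2 oligodendrocyte and 3 neuron markers, where 20.5% of all genes tested did. The 7 vascular markers summed to 19.6 to 62.1 TPM over the mice and the 5 ependymal markers to 9.70 to 24.5 TPM. Of the ependymal markers, *Tmem212* was at 0 in 6 mice and *Ccdc153* in 1. *Foxj1*, *Rarres2* and *Rax* were above 0 in every mouse. The gene *Lars2* alone took 9.34% to 34.4% of the counts of a mouse. The 4 Y-linked genes used to check the labels summed to 65 to 198 counts in females and to 1529 to 2454 in males.

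Of the 13 mitochondrial genes, 10 as deposited were among the 100 genes highest in mean TPM, and 7 of the 13 have near-identical nuclear copies that matter for reading their values. Nuclear copies of mitochondrial DNA are common in mammalian genomes. The files list 7 unprocessed pseudogenes side by side on chromosome 1, between 24611535 and 24616197 in mm10, that match *mt-Co1*, *mt-Co2*, *mt-Atp6*, *mt-Co3*, *mt-Nd3*, *mt-Nd4l* and *mt-Nd4*. Over the aligned bases, *mt-Co2*, *mt-Atp6*, *mt-Co3*, *mt-Nd4l* and *mt-Nd4* had 0 mismatches to their copies *Gm28661*, *Gm10925*, *Gm28437*, *Gm10222* and *Gm28439*. *mt-Co1* had 6 mismatches over 492 bases to *Gm29216*, and *mt-Nd3* had 1 mismatch over 345 bases to *Gm28438*. The first 60 bases of the coding sequence of *mt-Nd3* (chrM:9459-9518, plus strand) and the matching stretch of *Gm28438* (chr1:24613060-24613119, minus strand), from the mouse GENCODE M21 transcripts on mm10, are shown because they hold that single difference, which is in capitals.
mt-Nd3: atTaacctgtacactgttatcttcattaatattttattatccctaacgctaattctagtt
Gm28438: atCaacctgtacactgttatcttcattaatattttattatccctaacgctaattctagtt
*mt-Nd3* has 348 bases and its copy 345, without the end of the gene. A read that covers neither this base nor that end matches both transcripts equally, and its count was shared out by the authors' quantification.

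The consequence was visible mouse by mouse. *mt-Nd3*, a complex I subunit, was listed at 303, 106, 185, 46.3, 45.2 and 242 TPM in female 3, female 4 and males 1 to 4, and at 0 counts in females 1 and 2. In those females its copy *Gm28438* was listed at 269 and 337 TPM. Summed over the pair, with the copy's counts set on the gene's length, the values were 265, 331, 434 and 440 TPM in the 4 females and 366, 268, 351 and 401 TPM in the 4 males. The large gap between mice thus appeared in the gene alone and not in the pair. *mt-Co2*, a core subunit of complex IV, was at 1.52 TPM in female 1 and at 145 to 403 TPM in the other mice, and with its copy at 944 TPM in female 1 and 1016 to 1423 TPM in the others. *mt-Nd4l* in male 3 was listed at 740 TPM with 684 TPM on its copy, and the pair came to 1407 TPM.

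Over all mice, 79.8% of the counts of the *mt-Co2* pair, 83.0% of the *mt-Co3* pair and 62.7% of the *mt-Nd3* pair were assigned to the chromosome 1 copy. The share was 10.8% for *mt-Nd4l*, 6.09% for *mt-Co1* and 4.70% for *mt-Atp6*, and *Gm28439* had 0 counts in every mouse, so adding it changes nothing for *mt-Nd4*. Adding the copies left 1.51-fold to 1.73-fold between the lowest and the highest mouse for these 7 genes. Which of a pair the reads came from cannot be told apart, so values with copies added are an upper limit for the mitochondrial transcript, and both are given where they differ.

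**Figure D1:**
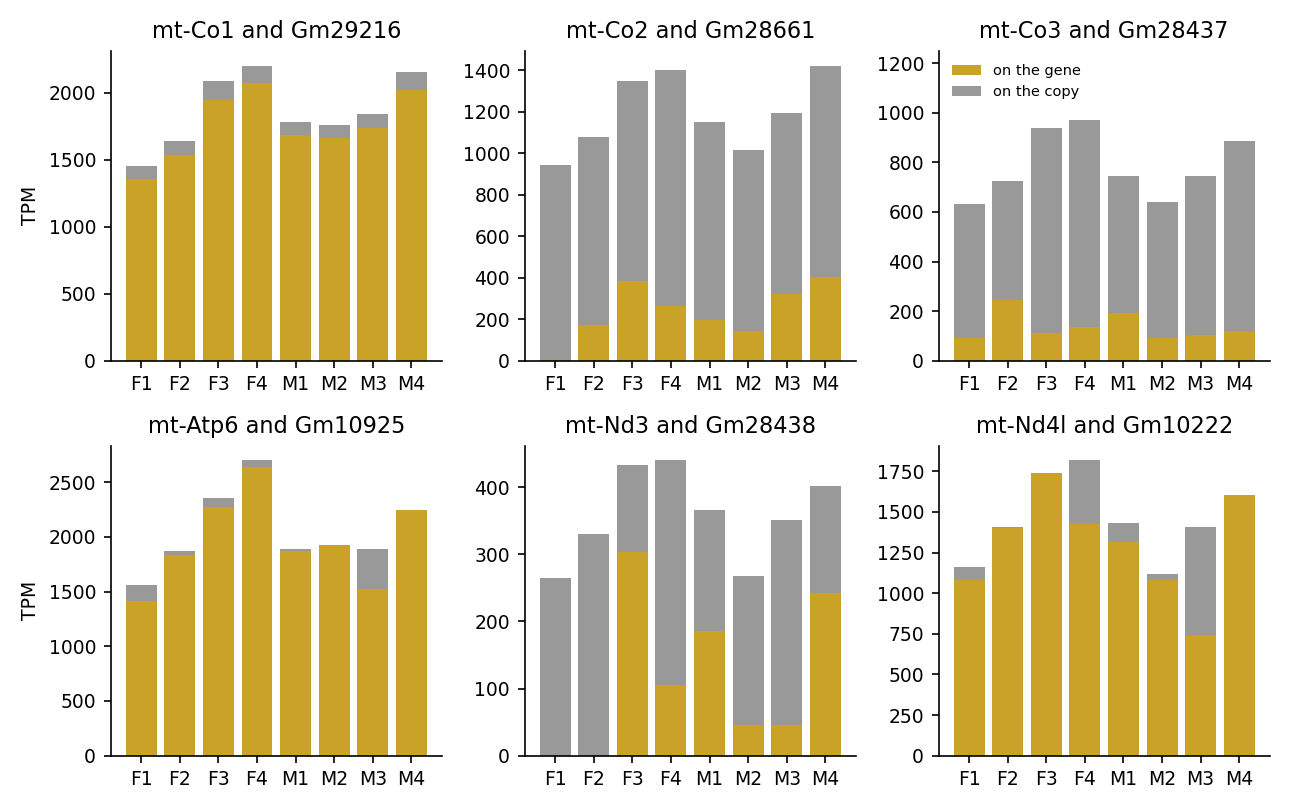
TPM (y axis, from 0) of 6 mitochondrial genes in each of the 4 female (F1 to F4) and 4 male mice (M1 to M4), with the part assigned to the gene in gold and the part assigned to its chromosome 1 copy in grey, set on the gene's length. The gold part of mt-Nd3 is 0 in F1 and F2 while the full bar is 265 and 331 TPM.

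With copies added, *mt-Atp8* and *mt-Atp6*, the mitochondrial subunits of ATP synthase, were highest by mean TPM, at 2459 (1945 to 2895 over the 8 mice) and 2055 (1564 to 2699). Then came *mt-Co1*, the catalytic subunit of complex IV, at 1865 (1456 to 2202), *mt-Cytb*, the mitochondrial subunit of complex III, at 1469 (1137 to 1887), *mt-Nd4l* at 1461, *mt-Nd1* at 1266, *mt-Co2* at 1195, *mt-Nd6* at 911, *mt-Nd4* at 883, *mt-Nd5* at 864, *mt-Co3* at 785, *mt-Nd2* at 676 and *mt-Nd3* at 357. Ranges of neighbours in this order overlapped in each case except the last, where *mt-Nd3* reached 440 TPM and *mt-Nd2* started at 538.

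The place of the shortest genes depends on the length used. The deposited effective length of each transcript longer than about 1000 bases was its length less 179 bases in all 8 mice, the same for every mouse, and *mt-Atp8*, with 204 bases, was given 29.2. With full lengths in place of effective lengths, *mt-Atp8* came to 449 TPM (353 to 531), *mt-Nd4l* to 740 TPM with its copy, and *mt-Co1* was highest at 2101 TPM (1628 to 2493). *mt-Atp8* overlaps *mt-Atp6* and *mt-Nd4l* overlaps *mt-Nd4* on the same strand, where reads of the overlap cannot be told apart. *mt-Nd6* is the only 1 of the 13 on the opposite strand, and since the strand setting of the quantification is not given in the sources used here, its reads and antisense reads cannot be told apart.

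The nuclear genes spanned a wide range of levels. Of 94, 86 had enough counts to be tested, with mean levels of 5.87 to 590 TPM and a median of 112 TPM, and 48 of them were at 100 TPM or more. *Atp5b*, the catalytic beta subunit of ATP synthase, was the highest, with 612, 635, 731 and 613 TPM in females and 565, 547, 596 and 423 TPM in males. The next was *Atp5h*, a peripheral stalk subunit, at 571 ± 58.7 TPM in females and 514 ± 46.4 in males (SD, n = 4 each). Within complex II, *Sdha*, the flavoprotein that oxidizes succinate, was far above the others, at 374 TPM against 108 for *Sdhb*, the iron-sulfur subunit, and 41.2 for *Sdhd*, a membrane anchor. Among accessory subunits of complex I, *Ndufs5* was highest at 323 TPM and *Ndufb10* next at 269. Among core subunits, *Ndufv1*, which binds NADH, was at 204 TPM. *Uqcrq* and *Uqcrc1* led complex III at 337 and 132 TPM, and *Cox8a* and *Cox5b* led complex IV at 330 and 302 TPM. The 8 assembly factors, which help to build complex I but are not part of it, were low, with a median of 27.4 TPM and the highest, *Ndufaf3* and *Ndufaf8*, at 39.4 and 37.6 TPM.

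The tested genes set under a complex did not share a level. The groups follow gene names, except for *Ndufa4* and *Ndufa4l2* and for the core of complex I, which was listed gene by gene. They hold alternative isoforms, so not all products are built into a complex in fixed proportions. The lowest gene of complex IV, *Cox6a2*, is such an isoform. Mean TPM ran from 46.2 to 232 over the 7 core subunits of complex I, from 24.7 to 323 over its 29 accessory subunits, from 72.7 to 337 over the 8 genes of complex III, from 5.87 to 330 over the 13 tested genes of complex IV and from 15.2 to 590 over the 17 tested genes of ATP synthase. The assembly factors ran from 11.3 to 39.4 TPM. From the lowest to the highest mouse, a single gene moved by a median of 1.55-fold over the 86 tested nuclear genes and by at most 4.73-fold, at *Cox6a2*.

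Subunits with tissue isoforms were present almost only as 1 form. *Cox4i1* held 99.7% of the summed TPM of the Cox4i pair (99.1% to 100% over the mice), *Cox6b1* 98.6% of the Cox6b pair and *Cox6a1* 96.1% of the Cox6a pair. *Cox7b* held 99.8% of the *Cox7b* pair and *Ndufa4* 98.1% of the pair with *Ndufa4l2*. *Cox8a* was the only Cox8 gene with counts, and *Cox8b* and *Cox8c* had 0 counts in all 8 mice, where the limit of 3 counts came to 0.148 to 0.457 counts per 1000000 (CPM). *Cox7a1*, the heart and muscle form, reached at most 5 counts in a mouse, and *Cox7a2* and the related *Cox7a2l* were listed at 68.3 and 107 TPM. *Cox6a2*, another heart and muscle form, was the lowest tested gene, at 8.77, 3.48, 3.63 and 2.22 TPM in females and 7.84, 10.5, 4.04 and 6.50 in males. The c subunit of ATP synthase, which forms the rotating ring, comes from a trio of nuclear genes with the same mature product, and *Atp5g3* gave 50.9% of its summed TPM, *Atp5g1* 37.1% and *Atp5g2* 12%. The 8 nuclear genes with too few counts to be tested were *Cox4i2*, *Cox6b2*, *Cox7a1*, *Cox7b2*, *Cox8b*, *Cox8c*, *Ndufa4l2* and a second *Atp5o* gene (ENSMUSG00000116933.1), and they reached at most 13 counts in a mouse.

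Not all of this signal fell on coding transcripts. A median of 93.2% of a tested nuclear gene's counts lay on transcripts annotated as protein-coding, but in 9 genes it was under 50%, among them *Ndufs4* at 12.9%, *Ndufs7* at 13.4% and *Cox7b* at 7.0%. A second limit is shared sequence, since 31 of the 94 nuclear genes had over 10% of their 31-base stretches in common with another gene, such as *Atp5g2*, which shared 37.5% with the pseudogene *Gm10175*.

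**Figure D2:**
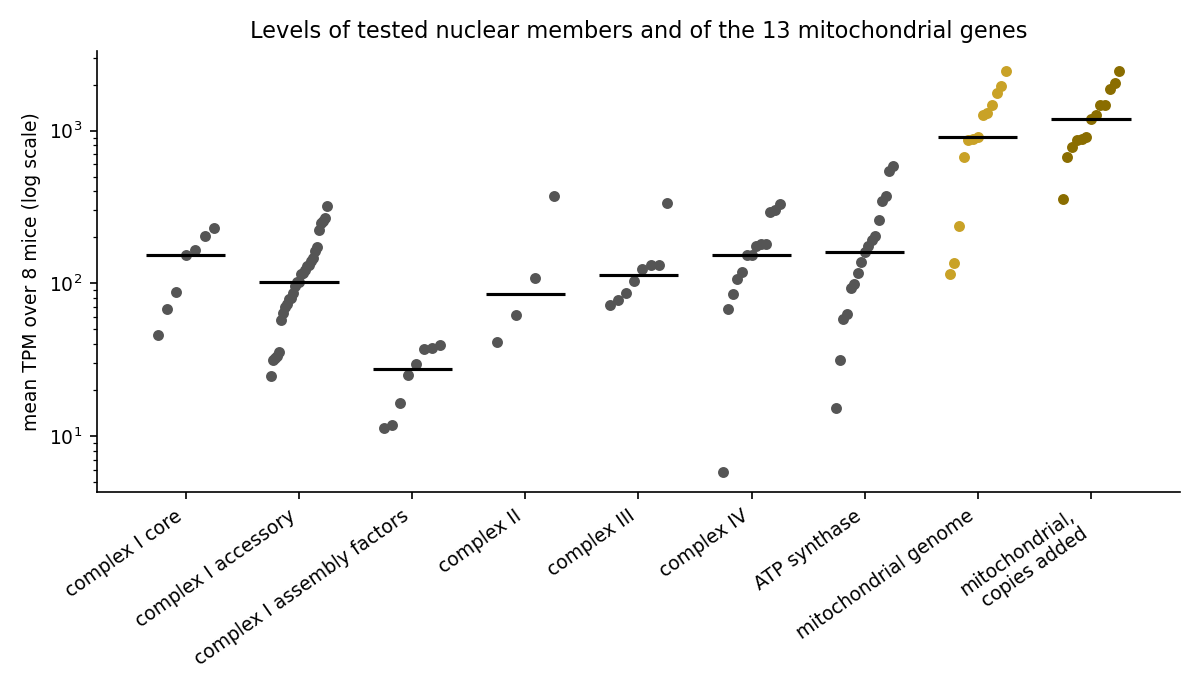
Mean TPM over 8 mice (log scale, y axis) of each tested nuclear gene by complex and of the 13 mitochondrial genes, as deposited and with the chromosome 1 copies added, with the median of each set as a line. The medians of the mitochondrial genes, 911 and 1195 TPM, lie above the highest nuclear gene, Atp5b at 590 TPM.

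Compared per length, the median mitochondrial gene was several times higher than the median nuclear gene for complexes I and III and ATP synthase in every mouse, and for complex IV this held with copies added but not as deposited. With copies added, 12 of the 13 mitochondrial genes had a higher mean TPM than the highest nuclear one, *Atp5b* at 590 TPM. As deposited, *mt-Co2*, *mt-Co3* and *mt-Nd3* were below it, at 236, 137 and 116 TPM. With copies added and full lengths, *mt-Atp8* and *mt-Nd3* were below *Atp5b*, at 449 and 221 against 565 TPM. The median mitochondrial gene of complex I was 8.12 times the median tested nuclear gene of complex I by mean TPM, with 6.60 to 9.91 over single mice, and 8.29 ± 1.39 in females and 8.06 ± 1.26 in males (SD, n = 4 each). The same ratio was 12.8 (lowest mouse 10, highest 17.6) for complex III, and for these complexes it was the same with copies added and as deposited. For complex IV it was 7.78 (6.16 to 9.33) with copies added and 1.54 (0.592 to 2.64) as deposited, where female 1 was below 1. For ATP synthase it was 14.1 (12.3 to 19.2) with copies added and 13.8 (11.7 to 19.2) as deposited, and 9.02 (6.27 to 12) with copies added and full lengths in place of effective lengths. All other ranges given here lie above 1.

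Summed over genes, the mitochondrial genes exceeded the nuclear ones in every mouse except female 1 as deposited, and in every mouse with copies added. The nuclear genes summed to 11885, 11768, 13197 and 12815 TPM in females and to 12618, 10928, 11974 and 10531 TPM in males. The 13 mitochondrial genes summed to 10585, 13087, 16960 and 17141 TPM in females and to 13818, 12278, 12422 and 15936 TPM in males. Females held both the lowest and the highest mitochondrial sum and so enclosed all males. The ratio of the mitochondrial to the nuclear sum was 0.891, 1.11, 1.29 and 1.34 in females and 1.10, 1.12, 1.04 and 1.51 in males. Female 1 was below 1 and male 4 was the highest, so the sexes overlapped, and with copies added the values were 1.07 to 1.56 and 1.25 to 1.71. On the log2 scale the female mean lay 0.05 below the male mean with a within-sex SD of 0.255, and no test was run on this sum over genes. As a share of all counts, the mitochondrial genes took 0.569% ± 0.151 in females and 0.566% ± 0.0439 in males (SD, n = 4 each), and the nuclear genes 0.413% ± 0.0466 and 0.412% ± 0.0403.

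**Figure D3:**
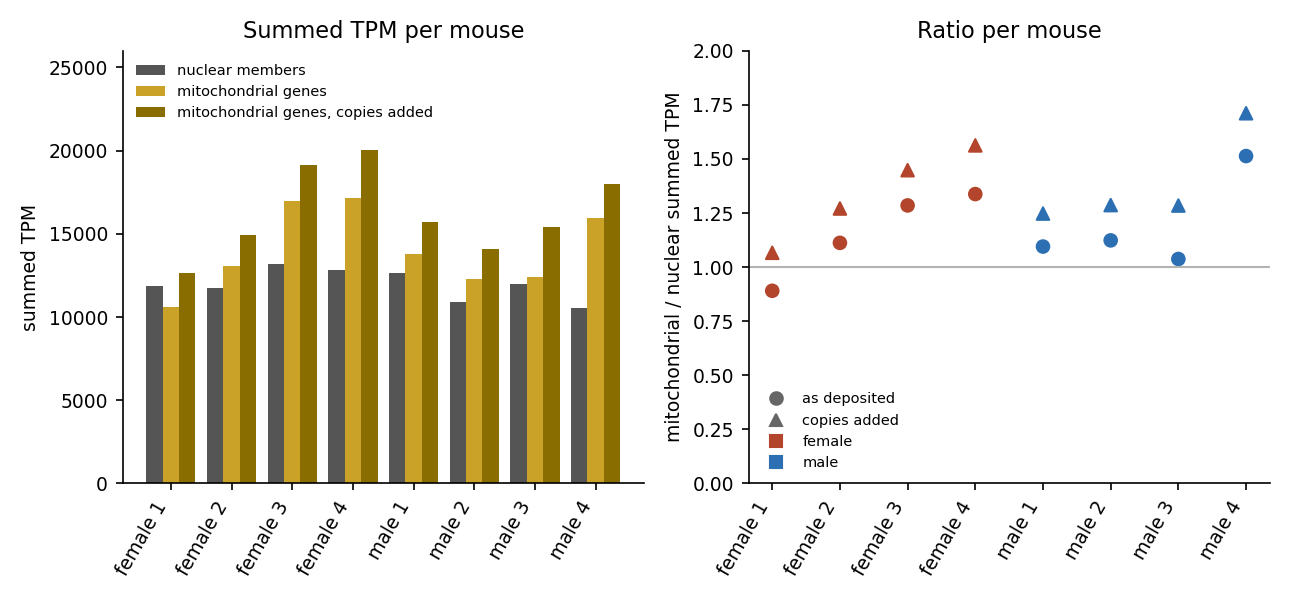
Left, summed TPM of nuclear members, mitochondrial genes and mitochondrial genes with copies added in each of the 8 mice, with bars from 0. Right, the ratio of the mitochondrial to the nuclear sum in each mouse (females red, males blue), from 0.891 in female 1 to 1.51 in male 4 as deposited, with the sexes overlapping.

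The mitochondrial genes shifted together between mice. With copies added, female 1 was lowest for 12 of the 13 genes and female 4 was highest for 11 of them. On log2 CPM, scaled by the trimmed mean of M values (TMM), the median deviation of the 13 genes from their mean over mice ran from -0.33 in female 1 to 0.27 in female 4, with 0.25 in male 4 and -0.18 in male 2. The same deviation of the nuclear genes ran from -0.08 to 0.10. The within-sex SD of this deviation was 0.217 for mitochondrial and 0.0638 for nuclear genes. Single nuclear genes had a median within-sex SD of 0.166 on log2 CPM, beside 0.248 over all 15194 genes tested and 0.222 over the mitochondrial genes with copies added. The tested nuclear genes had a median level of 112 TPM against 18.5 over all genes tested. Spread on this scale depends on counts, and the sets were not matched for level. These genes share libraries and, for the mitochondrial ones, long precursor transcripts, so they are not independent of each other. The microglia sum was 1821 TPM in female 1, lowest in the ratio, and 2882 TPM in male 4, highest in it. Males 2 and 3 had 3571 and 1760 TPM at ratios of 1.12 and 1.04. The remaining mice had 300 to 773 TPM at ratios of 1.10 to 1.34. The part of other cell types in the ratio was not tested.

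Females and males were then compared gene by gene. No oxidative phosphorylation gene passed the test. By the quasi-likelihood test of edgeR, with p-values adjusted by Benjamini-Hochberg over all genes tested, 0 of 86 nuclear and 0 of 13 mitochondrial genes passed an adjusted p of 0.05, where 24 genes, 0.158% of all tested, did. DESeq2, which called 1013 genes, 7.90% of those it tested, called 0 of 85 nuclear and 0 of 13 mitochondrial genes. At an unadjusted p under 0.05, 20.5% of all genes tested lay in edgeR, and 1 of the 86 nuclear and 0 of the 13 mitochondrial genes, and DESeq2 also had 1 and 0. The fitted log2 fold changes, female over male, had a median of 0.02 over the nuclear genes, with 47 above 0 and 39 below, and of 0.04 over the mitochondrial genes, with 8 above and 5 below, beside 0.00 over all genes.

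The intervals set how large a difference could have been missed. The 95% interval of the log2 fold change lay within 0.5 either way for 76 of the 99 tested genes, 76.8%, where this held for 35.8% of all genes tested. It lay within 1 either way, a 2-fold difference, for 94 of them, 94.9%, against 68.0%. The 99 genes had a median level of 125 TPM against 18.5 over all genes tested, and the width of an interval depends on counts, so these shares are not matched for level. For *Sdha* the interval was -0.20 to 0.11, for *Atp5b* -0.11 to 0.22 and for *mt-Nd1* -0.30 to 0.37. For *mt-Nd3* and *mt-Co2* as deposited it was far wider, -3.12 to 2.15 and -2.38 to 1.43. With copies added, the standard errors of these genes went from 1.17 to 0.164 and from 0.849 to 0.126, and the log2 fold changes from -0.49 to -0.00 and from -0.47 to -0.10.

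**Figure D4:**
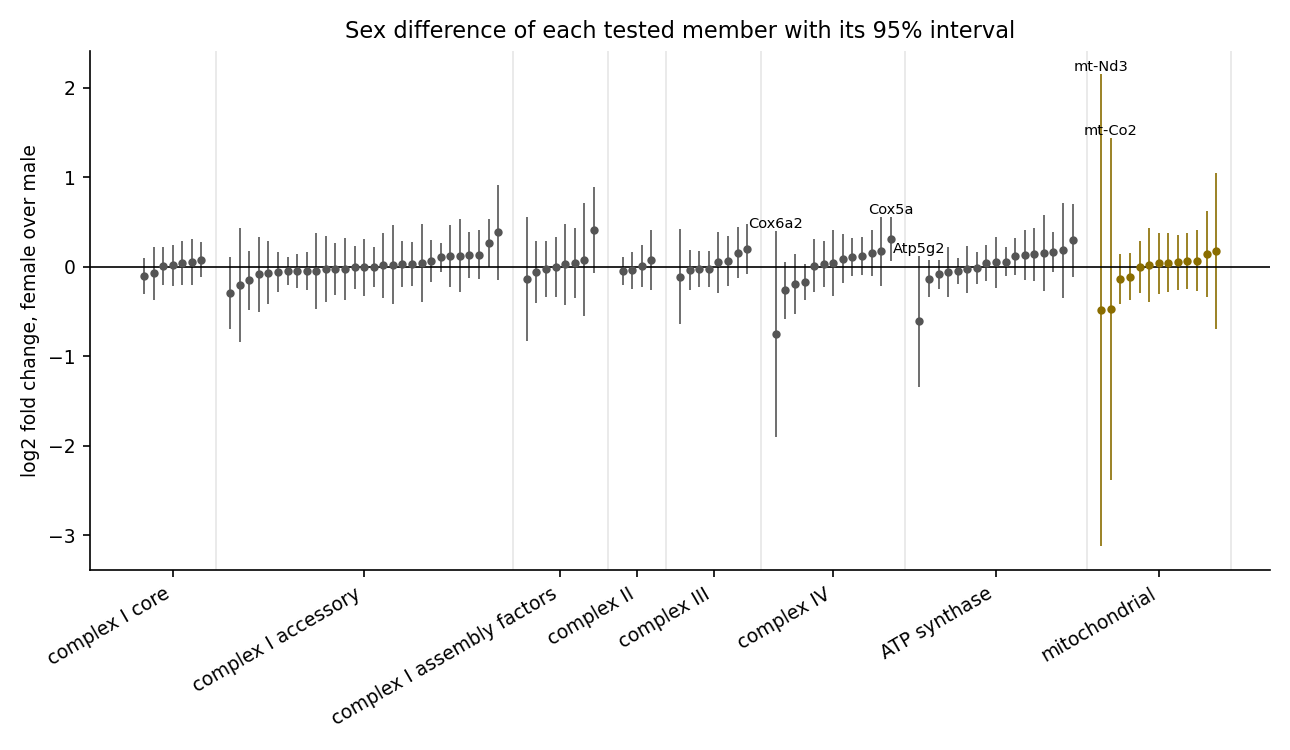
Log2 fold change, female over male (y axis), of each of the 86 nuclear and 13 mitochondrial genes tested by edgeR, sorted within each complex, with the 95% interval as a line. Cox5a is the only gene whose interval, 0.07 to 0.56, leaves out 0, and the widest intervals are those of mt-Nd3 and mt-Co2.

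*Cox5a*, a nuclear subunit of complex IV that faces the matrix, had the smallest p. It was listed at 131, 133, 147 and 133 TPM in females and at 117, 84.2, 117 and 89.2 TPM in males. Every female was above every male. Its log2 fold change was 0.31 (SE 0.109), with an unadjusted p of 0.0183 and an adjusted p of 0.178 in edgeR with Benjamini-Hochberg adjustment. An exact permutation test on log2 CPM, 2-sided, gave 0.0286, the smallest p that 4 against 4 mice allow, unadjusted. *Cox5a* was the only 1 of the 99 genes without overlap between the sexes on log2 CPM, 1.01%, where 10.4% of all genes tested had none. The males with the lowest values, males 2 and 4, also had the highest microglia sums, 3571 and 2882 TPM. Without them the log2 fold change was 0.17 with an adjusted p of 0.698 in edgeR. Leaving out the lowest males narrows the difference whatever their microglia sums, so that fit cannot tell which of these it reflects. The part of microglial RNA in this difference was not tested. On the TPM scale, which has no TMM scaling, *Atp5b*, *Atp5g1*, *Ndufa11* and *Ndufaf1* were without overlap as well, all higher in females, which makes 5 of 99 where 8.30% of all genes tested had none and 6.11% had every female above every male. *Ndufa11* is named after its values were seen.

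The next smallest p-values belonged to genes whose sexes overlapped on log2 CPM. *Ndufs4*, a complex I subunit whose loss in humans and mice causes a Leigh-like encephalopathy, was at 158 ± 24.9 TPM in females and 122 ± 13.9 in males (SD, n = 4 each), with a log2 fold change of 0.27 (SE 0.121) and an adjusted p of 0.252 in edgeR. *Ndufaf1*, a complex I assembly factor, was at 13.2 ± 1.88 and 9.38 ± 1.5 TPM, with an adjusted p of 0.306 in edgeR. *Atp5g2* was at 26.8 ± 5.92 TPM in females and 36.6 ± 12.9 in males, with an adjusted p of 0.314, and *Cox7a2l* at 100.4 ± 16.6 and 113 ± 9.11, with an adjusted p of 0.318. The adjusted p was 0.320 for *Cox4i1*, at 282 ± 2.80 TPM in females and 302 ± 29.1 in males. None of these passed.

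By complex, the median log2 fold change lay between -0.01 for complex II and 0.05 for ATP synthase, each beside a median standard error of 0.0980 to 0.187. The 7 core subunits of complex I ranged from -0.10 to 0.08 and the 4 genes of complex II from -0.05 to 0.07, the narrowest spans of the groups. The 29 accessory subunits of complex I ranged from -0.29 to 0.39. On chromosome X lie *Ndufa1* and *Ndufb11*, of complex I, and *Cox7b*. Their log2 fold changes were -0.20, -0.15 and 0.09 with adjusted p of 0.718, 0.583 and 0.712 in edgeR, and none passed.

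Genes that build, feed or regulate the chain were read beside it in the same fit. Of 43 assembly factors and electron carriers outside the name rule, 0 passed the adjusted test and 3 were under an unadjusted p of 0.05, among them *Acad9*, needed to assemble complex I, with 75.0 ± 3.65 TPM in females and 56.9 ± 4.92 in males (adjusted p = 0.162, edgeR). *Cycs*, the mobile electron carrier cytochrome c, was at 70.1 ± 14.9 and 57.9 ± 17.8 TPM. Of 26 tested genes for expression and upkeep of mitochondrial DNA, 0 passed and 1 was under 0.05 unadjusted, *Pnpt1*, a mitochondrial RNA nuclease. *Tfam*, which packages mitochondrial DNA, was at 38.0 ± 4.98 and 38.5 ± 2.16 TPM, and *Polrmt*, the mitochondrial RNA polymerase, at 18.4 ± 3.31 and 13.1 ± 1.90 TPM. Of 10 tested regulators of mitochondrial biogenesis 0 passed and 1 was under 0.05 unadjusted. It was *Gabpb1*, at 21.2 ± 4.02 and 28.8 ± 15.6 TPM (adjusted p = 0.218, edgeR). The coactivator *Ppargc1a* was at 15.1 ± 4.07 and 11.6 ± 3.86 TPM and the factor *Nrf1* at 15.1 ± 1.92 and 16.2 ± 1.92 TPM (SD, n = 4 females and 4 males). Among 17 citric acid cycle genes 0 passed and 3 were under 0.05 unadjusted, with 16 fitted values above 0 and a median of 0.08. Among 15 tested glycolytic genes 0 passed and 4 were under 0.05 unadjusted, with 13 above 0 and a median of 0.11. Over all 15194 genes tested, 7506 fitted values were above 0 and 20.5% were under an unadjusted p of 0.05 in edgeR. The neuron markers also had fitted values above 0 and the microglia, astrocyte and oligodendrocyte markers below 0, and their part in these values was not tested. Of 9 tested uncoupling and adenine nucleotide exchange genes 0 passed and 2 were under 0.05 unadjusted. These were *Vdac1*, the outer membrane channel, at 308 ± 41.3 and 230 ± 14.7 TPM (adjusted p = 0.0797, edgeR), and *Ucp2*, at 101 ± 24.5 and 163 ± 49.2 TPM (adjusted p = 0.145, edgeR). Of the 78 mitochondrial ribosomal protein genes 0 passed, 5 were under an unadjusted p of 0.05 in edgeR and the median was 0.05.

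The cytosolic ribosomal protein genes, another large set of short and abundant transcripts, were read in the same way. Of 83 tested, 0 passed the adjusted test in edgeR, 61 were under an unadjusted p of 0.05, 43 had every male above every female on log2 CPM and the median was -0.43. Over all 15194 genes tested, 20.5% were under 0.05 unadjusted and 598 genes had every male above every female. Of 11 genes of the response to dissociation, 10 were under 0.05 unadjusted, all with lower values in females, and the median was -0.62. The summed TPM of these 11 genes was 2204 ± 257 in females and 3066 ± 453 in males (SD, n = 4 each). Beside these sets, the oxidative phosphorylation genes had 1 gene of 99 under 0.05 unadjusted. No test of the difference between sets was run, and the part of the neuronal and glial markers in these values was not tested.

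**Figure D5:**
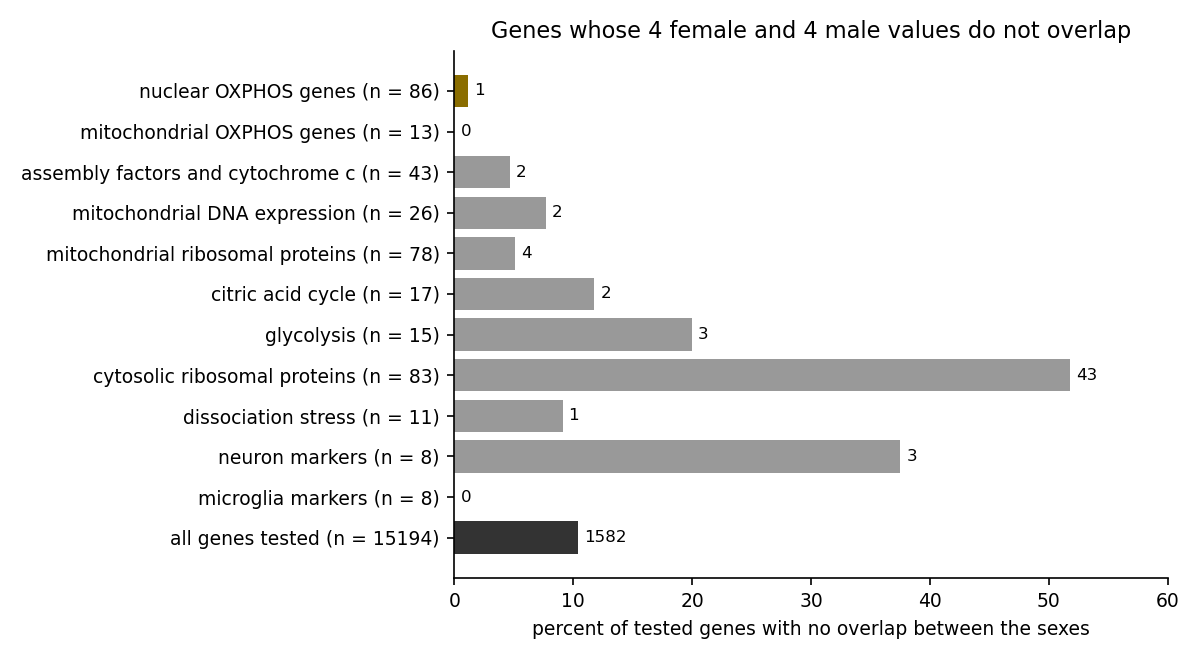
Percent of tested genes of each set whose 4 female and 4 male values do not overlap on log2 CPM (x axis, bars from 0), with the number of such genes at each bar and the number tested in the label. Nuclear and mitochondrial oxidative phosphorylation genes show 1 of 86 and 0 of 13, and all genes tested 10.4%.

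The promoters of the nuclear genes were read for letters that the name rule did not use. GABP, of the ETS family, and YY1 are known to bind promoters of many respiratory genes. RefSeq promoters of GRCm38.p6, from 250 bases before to 50 bases after a gene's start, were found for 77 of the 94 nuclear genes, which gave 76 distinct promoters. Not matched were 17 genes, among them *Atp5a1*, *Atp5mpl*, *Ndufa2*, *Ndufb9*, *Ndufaf6*, *Ndufs1*, *Sdhc*, *Uqcrb*, *Uqcrc2*, *Uqcrq*, *Cox4i1*, *Cox4i2*, *Cox6a2*, *Cox6c*, *Cox8c* and *Ndufa4l2*. The ETS letters CCGGAAG, read on both strands, were in 18 of the 76, 23.7%, in 9.93% of all 27025 genes with a promoter, and in 18% of the 11159 other protein-coding genes tested here. The YY1 letters ATGGCGG were in 12 of the 76, 15.8%, beside 4.69% and 8.53%. Neither motif contains the other.

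The promoters of *Atp5h* and *Cox8a* are shown because these genes had the highest levels in ATP synthase and complex IV among those with the ETS letters, with 1 and 2 runs of them. The runs are in capitals, and read CTTCCGG where the motif lies on the other strand. The promoter of *Atp5h* lies at chr11:115419870-115420169, minus strand, and that of *Cox8a*, a small subunit of complex IV, at chr19:7217567-7217866, minus strand.
Atp5h: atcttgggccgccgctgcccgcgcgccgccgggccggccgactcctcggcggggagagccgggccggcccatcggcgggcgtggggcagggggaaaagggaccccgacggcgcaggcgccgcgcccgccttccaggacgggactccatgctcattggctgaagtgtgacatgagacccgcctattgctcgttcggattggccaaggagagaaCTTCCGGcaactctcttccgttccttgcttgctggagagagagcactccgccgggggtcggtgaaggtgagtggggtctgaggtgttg
Cox8a: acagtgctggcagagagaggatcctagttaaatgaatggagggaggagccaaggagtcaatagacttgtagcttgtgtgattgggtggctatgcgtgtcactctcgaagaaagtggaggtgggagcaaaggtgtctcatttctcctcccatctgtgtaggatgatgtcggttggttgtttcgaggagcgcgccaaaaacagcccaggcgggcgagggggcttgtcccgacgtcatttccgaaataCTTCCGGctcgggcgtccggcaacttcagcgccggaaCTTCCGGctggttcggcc
Neither gene differed beyond the spread between mice. *Cox8a* was at 353, 368, 328 and 317 TPM in females and 360, 310, 323 and 284 TPM in males, and the sexes overlapped. The log2 fold change of females over males was 0.03 (95% interval -0.23 to 0.28) for *Cox8a*, with an adjusted p of 0.918 in edgeR, and 0.04 (-0.16 to 0.24) for *Atp5h*, with an adjusted p of 0.835. A match of letters is not a bound site, and binding was not measured.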

How the data were processed

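RNA of sorted TN SST neurons from 4 female and 4 male mice was quantified by the authors with kallisto 0.46.2 (per the submitters' processing notes, mm10), 1 single-end library per mouse. The deposited estimated counts per transcript are not normalized and need not be whole. The deposited TPM signal is scaled to 1000000 in each of 2 blocks of the same transcripts per file, whose meaning is not given in the sources used here, whereas 1 value per transcript had been assumed when the tests were planned. Counts were summed over blocks, TPM were averaged, and both were summed per gene with GENCODE M21. Effective lengths are identical in all mice. Transcripts without a match held 0.429% to 0.611% of counts.

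Counts were rounded and the sexes compared in R 4.3.3 with edgeR 4.0.16 (limma 3.58.1, TMM scaling, the default low-count filter by sex). Sex was the sole term of the quasi-likelihood model, and p-values were adjusted by Benjamini-Hochberg and called under 0.05. log2 CPM used a prior count of 2. DESeq2 1.42.0 was the alternative test and DESeq2 is the tool the authors used. Other alternatives were RLE and upper quartile scaling, no filter, at least 10 counts in at least 4 mice, a library without *Lars2* and mitochondrial genes, protein-coding transcripts only, a length offset, each block alone, a replicate block, and leaving out each mouse. Copies of mitochondrial genes added, full lengths, and both mice highest in microglia markers left out were chosen after seeing the data. Shared sequence was found by matching 31-base stretches over 116728 transcripts. Promoter motifs were searched on both strands, and an NRF1 motif and a longer form of the YY1 motif searched first are not reported. Exact permutation tests were 2-sided. Python 3.11.15 with numpy 2.4.6, pandas 2.3.3, scipy 1.17.1 and matplotlib 3.10.9 was used. The fits were checked on simulated counts.

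Members, lists and rules were chosen with earlier results of these data known. Named genes are all mitochondrial genes, per nuclear group the 2 highest by TPM and the 2 with the smallest p, isoform families, genes below the count filter, and up to 2 genes per other list with the smallest p; *Tfam*, *Polrmt*, *Ppargc1a*, *Nrf1*, *Cycs* and the X-linked genes were added for their roles. Nothing says whether mice were processed together, and p-values measure the spread between these mice. Limits of detection cover counting error only. Mitochondrial ribosomal RNAs and other assays of the study were not analysed here, and 1 of the named genes is not reported here.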

Additional observations from a re-analysis of the deposited data

Results flagged for a closer look

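Within each sex, 138 groups of 4 values (named genes, gene pairs with copies, and sums per mouse) were searched for a mouse far from the other 3 of its sex, where chance is expected to give about 1 in 20, or 6.9, and 5 were found. Male 4 was the lowest male for *Ndufaf3* at 20.3 TPM, with the next male at 42.5. Male 4 was also the highest male for *mt-Atp6* with its copy, at 2249 TPM, with the next at 1926. Female 3 was the highest female for *Cox5a* at 147 TPM, with the next at 133. Male 2 was the highest male for *Cox4i2* at 2.65 TPM and male 1 for *Cox7b2* at 0.859 TPM, both genes with at most 10 counts in a mouse.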

How the results depend on the processing

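The counts of nuclear and mitochondrial genes passing the adjusted threshold were 0 under every one of the alternatives run, also when each mouse was left out (0 to 0). The number of all genes called was 24 and moved with the fit, to 1013 in DESeq2, 14 with a length offset, 5 without the pair of mice highest in microglia markers (males 2 and 4), and 8 to 415 when 1 mouse was left out, with 415 without female 1 and 411 without male 1. With the replicate number as a block, 1 gene was called and 0 members. After the mean of each sex was taken out, same-numbered mice correlated over genes at -0.396, -0.156, 0.036 and 0.072. With 4 mice per sex these values cannot tell whether mice of the same number were handled together.

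The median log2 fold change of nuclear genes was -0.01 to 0.07 when 1 mouse was left out, and -0.0497 without males 2 and 4, beside 0.02. That of mitochondrial genes was -0.07 to 0.15 when 1 mouse was left out. The female minus male log2 ratio was -0.12 to 0.07 when 1 mouse was left out and 0.10 without males 2 and 4, beside -0.05. The difference in mitochondrial share was -0.05 to 0.05 percentage points when 1 mouse was left out. The median mitochondrial gene of complex IV was 7.78 times the median nuclear one with copies added, 1.54 times without them and 9.64 times with full lengths, and that of ATP synthase went from 14.1 to 9.02 with full lengths, settings chosen after seeing the data. The signs of the sex differences are within the spread between mice. Of 46 named genes, 30 changed direction under at least 1 alternative, but of the 10 with an absolute log2 fold change of at least 0.2, 2 did, *mt-Co2* (0.95 with block 1 alone) and *mt-Nd3*. The adjusted p of *Cox5a* was 0.0948 to 0.698 over the alternatives. Depth limits the genes under about 10 counts and the shared sequence limits the mitochondrial genes with copies.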
